A study of Homo sapiens with 12 samples.

Results

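Aminoacyl-tRNA synthetases join each amino acid to its tRNA before translation. The set described here held 35 of these genes, found by symbol among the 60649 gene identifiers of the deposited tables: 19 for enzymes of the cytosol and 16 for enzymes of mitochondria. The genes were listed by name, without a threshold on any measured value. Their mRNA was sequenced in the human line AC16, made by fusing cells of adult ventricular tissue with a transformed fibroblast line. All cells were labelled wild type (WT) and each of the 4 groups held 3 libraries, stated to be independent biological replicates. Vehicle cells received phosphate-buffered saline and are labelled 24 h. Acute cells were taken directly after a 24 h pulse of recombinant interferon alpha-2a (IFN-α2a, 1000 U/mL). Recovery cells had the same pulse followed by a 5-day hold in medium lacking the cytokine (harvest labelled day 6). For repeat cells the hold lasted 4 days and ended in a further 24 h pulse (harvest labelled day 7).

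Human cells keep largely separate synthetases for cytosolic and mitochondrial protein synthesis, all encoded in the nucleus. Several cytosolic enzymes assemble with the scaffold proteins AIMP1, AIMP2 and EEF1E1 into a multisynthetase complex. When amino acids run short, uncharged tRNA activates the kinase GCN2, and the transcription factor ATF4 then raises the genes of many cytosolic synthetases together with those of amino acid synthesis and uptake. WARS1, tryptophanyl-tRNA synthetase, is the member long known as an interferon-induced gene, most strongly with interferon gamma. Interferon also induces IDO1, an enzyme that degrades tryptophan.

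All 35 synthetase genes passed the count filter, along with 18119 genes in all. Their mean levels over the 12 libraries ran from 6.11 to 353 CPM (counts per 1000000 counts, scaled between libraries by TMM). Library totals ran from 39.9 to 62.3 M estimated counts (M for 1000000). A gene was called when its adjusted p in edgeR's quasi-likelihood F test was under 0.05 (two-sided, Benjamini-Hochberg over all genes tested), and ± after a log2 fold change is the standard error. In pooled RNA of a culture, a change in RNA per cell and a change in the mix of cells cannot be told apart. The cells are labelled cardiomyocytes, but of 12 cardiomyocyte markers only ACTN2 passed the filter, and cardiac troponin T (TNNT2) had at most 14 counts in a library. All 9 fibroblast and stromal markers passed, with a summed level of 4590 to 4930 TPM (counts scaled by gene length, then to a sum of 1000000). The summed level of 10 interferon-response genes was 649 to 741 TPM in vehicle, 2960 to 3090 in acute, 779 to 849 in recovery and 3020 to 3070 TPM in repeat libraries. IRF1 alone had a mean of 490 TPM in vehicle and 564 TPM in recovery cells, so these 2 sums mostly follow IRF1. Gene by gene, all 10 were called higher in acute than in vehicle cells. Their median log2 fold change was 2.67, from 0.58 (IRF1) to 8.97 (OAS1).

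The promoters were searched for elements of the interferon and ATF4 responses. RefSeq windows of GRCh38.p14, from 250 bases before to 50 bases after each gene start, were present for 30 of the 35 genes (39 windows). They were searched on both strands for the interferon-stimulated response element (ISRE, here GAAA, any 2 bases and GAAA again), the gamma-activated sequence (GAS, TTCNNNGAA) and an ATF4 element (TGATGNAA). The ISRE letters occurred in 3.57% of all 35116 windows of this length, the GAS letters in 7.66% and the ATF4 letters in 3.62%. Among the synthetases the ISRE letters occurred in 3 of the 39 windows, from WARS1 and EARS2. For EARS2 the same site lay in overlapping windows. Its mRNA was not called in acute against vehicle cells (log2 fold change 0.02 ± 0.034, adjusted p = 0.745). WARS1 has 2 starts in the table, 980 bases apart on the minus strand, and the sequence before each is shown because only the downstream one holds the ISRE letters (in capitals), 55 bases before the start.
WARS1 upstream start, chr14:100376328-100376577, minus strand: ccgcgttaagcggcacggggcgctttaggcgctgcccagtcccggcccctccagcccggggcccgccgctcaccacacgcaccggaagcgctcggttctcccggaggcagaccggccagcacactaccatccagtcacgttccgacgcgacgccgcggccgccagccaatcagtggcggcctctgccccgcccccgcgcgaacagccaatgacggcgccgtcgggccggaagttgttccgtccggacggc
WARS1 downstream start, chr14:100375348-100375597, minus strand: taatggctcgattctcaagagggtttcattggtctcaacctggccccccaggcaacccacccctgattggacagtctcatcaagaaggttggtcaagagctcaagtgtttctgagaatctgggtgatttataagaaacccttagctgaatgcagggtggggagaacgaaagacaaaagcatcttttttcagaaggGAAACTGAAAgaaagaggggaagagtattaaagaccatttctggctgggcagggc
The upstream stretch is 73.6% G and C and the downstream one 47.2%. The downstream window also held the GAS letters, 142 bases before the start. GAS letters were present in 7 of the 39 windows, from 5 of the 30 genes: CARS1, PARS2, TARS1, WARS1 and WARS2. For WARS2 the same site lay in overlapping windows. A match to letters is a description of the sequence and not evidence of binding.

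The ATF4 letters occurred in 8 of the 39 windows, beside 3.62% of all windows. These windows belonged to 8 of the 30 genes, 7 of them cytosolic enzymes, and WARS1 was not among them. The stretches below are in the sense of each gene and show the match in capitals. They are given to compare the genes that share it, since their mRNAs were not all called the same way after interferon.
AARS1, chr16:70289676-70289703, minus strand: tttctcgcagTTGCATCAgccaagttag
CARS1, chr11:3057408-3057435, minus strand: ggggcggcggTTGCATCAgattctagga
GARS1, chr7:30594835-30594862, plus strand: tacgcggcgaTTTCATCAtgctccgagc
IARS1, chr9:92293693-92293720, minus strand: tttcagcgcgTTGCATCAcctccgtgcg
MARS1, chr12:57488054-57488081, plus strand: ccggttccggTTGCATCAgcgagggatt
NARS1, chr18:57621805-57621832, minus strand: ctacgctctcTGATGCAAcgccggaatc
TARS1, chr5:33440957-33440984, plus strand: cgcctttcgaTTGCATCAgctggtccag
YARS2, chr12:32756077-32756104, minus strand: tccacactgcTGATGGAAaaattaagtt
In the acute cells, the mRNAs of AARS1, CARS1, IARS1 and NARS1 fell, that of YARS2 rose, and those of GARS1, MARS1 and TARS1 were not called. The call of YARS2, the only rise, was lost in 7 of the 20 alternative settings described below. NARS1 lost its call in 3, CARS1 in 2 and AARS1 and IARS1 in 0 of them.

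How a first pulse changed synthetase mRNA was read from acute against vehicle cells. WARS1 rose to 1.67 times its vehicle level, and every other synthetase stayed between 0.79 and 1.29 times its own (RARS2 and MARS2). Of 35 genes 24 were called, 14 higher and 10 lower. Acute and vehicle libraries did not overlap in 25 of 35, against 52.8% of all genes. Of all 18119 genes tested 43.8% were called, and of the 10719 with a mean level at least that of the lowest synthetase, 60.9%. The share of called genes was therefore not far from that of other genes at such levels. Cytosolic enzymes split into 7 higher, 8 lower and 4 not called (median log2 fold change -0.02). Mitochondrial enzymes split into 7 higher, 2 lower and 7 not called (median 0.05), beside a median of 0 over all genes and 22.3% of genes called higher and 21.5% lower. With upper quartile scaling in place of TMM the split was 11 higher and 12 lower, so the balance of directions depended on the scaling.

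WARS1 (ENSG00000140105.18) lies on the minus strand of chromosome 14 at 100333790 to 100376805 (GRCh38, GENCODE 44). Its level was 112, 107 and 109 CPM in vehicle, 183, 183 and 181 in acute, 108, 106 and 105 in recovery and 169, 179 and 178 CPM in repeat libraries. The acute and repeat libraries all lay above every vehicle and recovery library. The log2 fold change from vehicle to acute was 0.74 ± 0.025 (95% interval 0.69 to 0.79, adjusted p = 1.15e-19). It ranked 743 of 18119 genes by log2 fold change. The next largest rise among the synthetases, that of MARS2, had an interval of 0.23 to 0.49, which did not reach that of WARS1. An annotated gene on the opposite strand, WDR25, overlaps the WARS1 span, and its level was 5.97 CPM in vehicle and 6.88 CPM in acute cells.

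**Figure D1:**
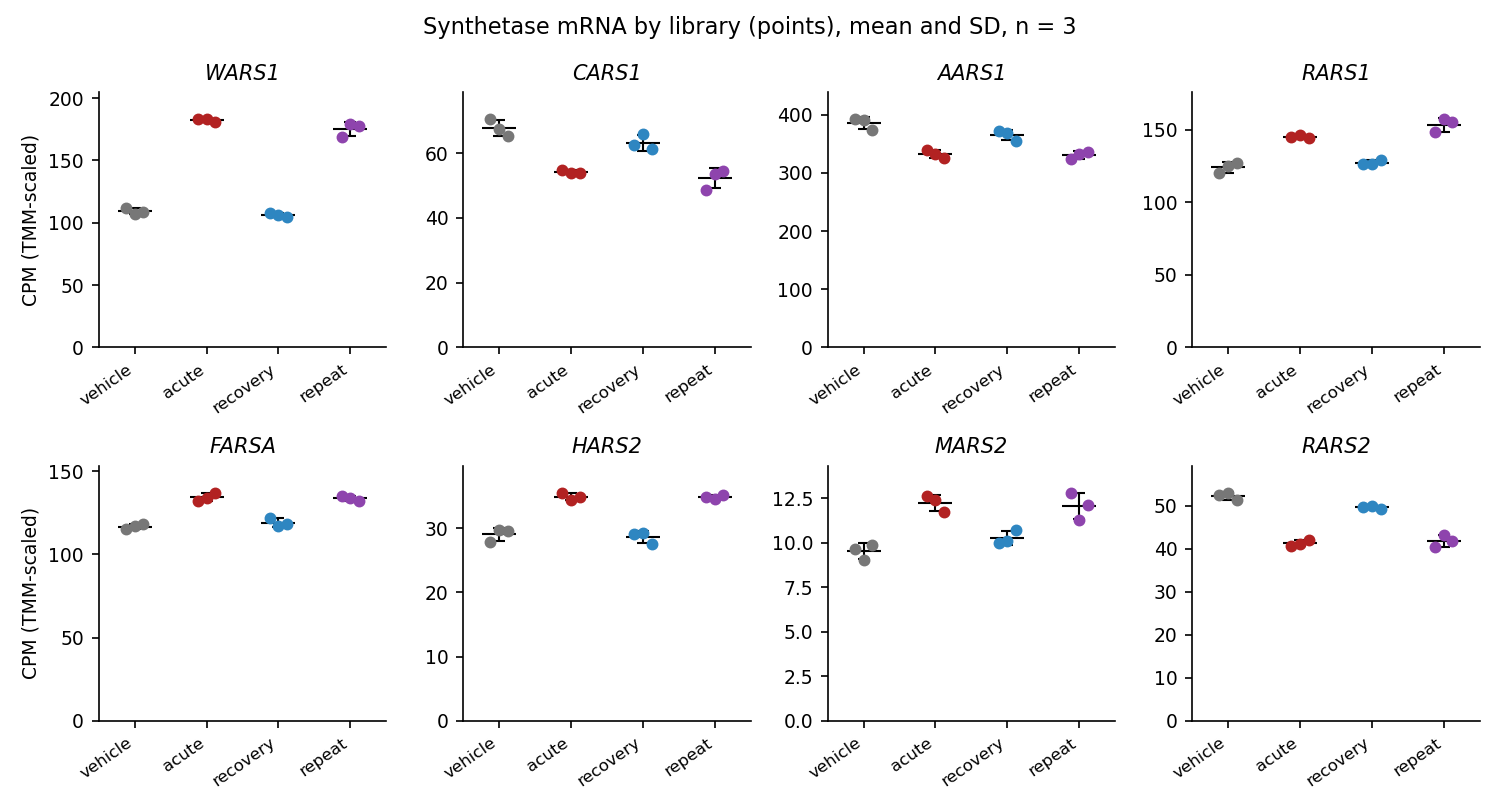
Level (vertical axes, CPM, TMM-scaled, from 0) of 8 synthetase mRNAs in the 4 groups (horizontal axes). Points are libraries, dashes and bars the mean and SD (n = 3). WARS1 stood at 181 to 183 CPM in acute and 169 to 179 CPM in repeat libraries against 105 to 112 CPM in the other groups, while CARS1, AARS1 and RARS2 were lower after either pulse.

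As a share of all counts on the 19 cytosolic synthetases, WARS1 took 2.91% ± 0.0643 in vehicle, 4.89% ± 0.0153 in acute, 2.89% ± 0.0252 in recovery and 4.72% ± 0.0458 in repeat libraries (SD, n = 3). Lowest and highest library were 2.84% and 2.96% in vehicle against 4.88% and 4.91% in acute cells. Of the deposited TPM of these enzymes, WARS1 took 12.6% ± 0.551, 22% ± 0.4, 13.6% ± 0.462 and 21.9% ± 1.21 in the same order (SD, n = 3). By any of these quantities the acute and repeat libraries lay above the vehicle and recovery libraries. The large gap between the count share and the TPM share comes from the gene length behind the TPM. Set on a scale from 548 genes with 1 annotated transcript, counts divided by TPM gave WARS1 a length of 139 ± 4.08 nt for vehicle and 127 ± 5.55 nt for acute cells (SD over 3 libraries), 2.03% of its 6356 nt of annotated exons on average. Other members had such short implied lengths too, among them TARS1 (125 nt), MARS1 (188 nt) and CARS2 (184 nt, means over all libraries). In vehicle cells TARS1 had 1950 and MARS1 805 of the 4980 TPM summed over cytosolic enzymes (means). The TPM share of WARS1 therefore has this limit in its denominator as well. TPM levels of different synthetases are for that reason not ranked here.

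Per kilobase of annotated exon, where lengths are the same in every library, WARS1 took 2.83% ± 0.0659 of the cytosolic sum in vehicle cells and 4.63% ± 0.0254 of it in acute cells (SD over 3 libraries). On that scale it stood at place 15 of 35 in vehicle, at 17.2 ± 0.382 CPM per kilobase, level with GARS1 (17.5 ± 0.481) within their spread. In acute cells it stood at place 10, at 28.7 ± 0.216 CPM per kilobase, between AARS1 (32.5 ± 0.621) and IARS2 (26.1 ± 0.159). The highest level in both groups was that of TARS1, threonyl-tRNA synthetase (69.5 ± 1.51 in vehicle), and the lowest that of NARS2, the mitochondrial asparaginyl enzyme (0.768 ± 0.018). Annotated exons include rarely used ones, so a gene with many transcripts is placed too low.

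Of the other cytosolic enzymes, the largest rises were those of RARS1 (arginine), FARSA and FARSB (the 2 subunits of the phenylalanine enzyme) and HARS1 (histidine). RARS1 gave 120, 125 and 127 CPM in vehicle and 145, 146 and 144 CPM in acute libraries, without overlap (log2 fold change 0.23 ± 0.026, adjusted p = 2.42e-08). FARSA gave 115, 117 and 118 CPM in vehicle and 132, 134 and 137 CPM in acute libraries (0.20 ± 0.024, adjusted p = 8.19e-08). The phenylalanine enzyme works as a tetramer of both subunits, and the mRNA of the partner moved the same way. FARSB rose from 73.4, 75.6 and 76.7 CPM to 82.6, 83 and 85 CPM (0.15 ± 0.027, adjusted p = 3.07e-05). HARS1 rose from 83.4, 89.2 and 87.5 CPM to 97.6, 95.2 and 95.8 CPM (0.15 ± 0.027, adjusted p = 3.7e-05). KARS1 (lysine), whose gene also encodes the mitochondrial enzyme, rose by 0.10 ± 0.023, and EPRS1 by 0.07 ± 0.022 (adjusted p = 0.00596).

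EPRS1, the fused glutamyl-prolyl enzyme, is known for another role in interferon-gamma-treated myeloid cells, where it leaves the multisynthetase complex and joins RPL13A, GAPDH and SYNCRIP in the GAIT complex that blocks translation of some inflammatory mRNAs. Its level was 254, 257 and 254 CPM in vehicle and 272, 270 and 264 CPM in acute libraries. The groups did not overlap, but the difference was small. Of its partners, RPL13A fell (-0.19 ± 0.024) and GAPDH fell slightly (-0.06 ± 0.022, adjusted p = 0.0342), while SYNCRIP was not called (0.04 ± 0.019). That makes 1 of 4 genes higher and 2 lower, beside 22.3% and 21.5% of all genes.

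The falls among cytosolic enzymes were led by CARS1, the cysteine enzyme. It gave 70.4, 67.4 and 65.3 CPM in vehicle and 54.8, 53.7 and 53.9 CPM in acute libraries (log2 fold change -0.32 ± 0.039, adjusted p = 3.81e-07). The 3 acute libraries were tightly grouped below all vehicle libraries. AARS1, the alanine enzyme, gave 392, 391 and 373 CPM in vehicle and 339, 332 and 326 CPM in acute libraries (-0.21 ± 0.024, adjusted p = 2.27e-08). QARS1, the glutamine enzyme, gave 138, 137 and 135 CPM against 116, 119 and 119 CPM (-0.21 ± 0.023, adjusted p = 1.25e-08). Neither gene's groups overlapped. LARS1 (leucine, also a sensor of leucine for mTORC1) fell from 179, 175 and 169 CPM to 157, 154 and 153 CPM (-0.18 ± 0.024, adjusted p = 7.79e-07). YARS1 (tyrosine) fell from 267, 262 and 253 CPM to 233, 233 and 230 CPM (-0.17 ± 0.023, adjusted p = 5.89e-07). Smaller falls were measured for IARS1 (isoleucine, -0.11 ± 0.022), SARS1 (serine, -0.11 ± 0.033) and NARS1 (asparagine, -0.07 ± 0.024). GARS1, MARS1, TARS1 and VARS1 were not called, with log2 fold changes of -0.05 to 0.03.

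**Figure D2:**
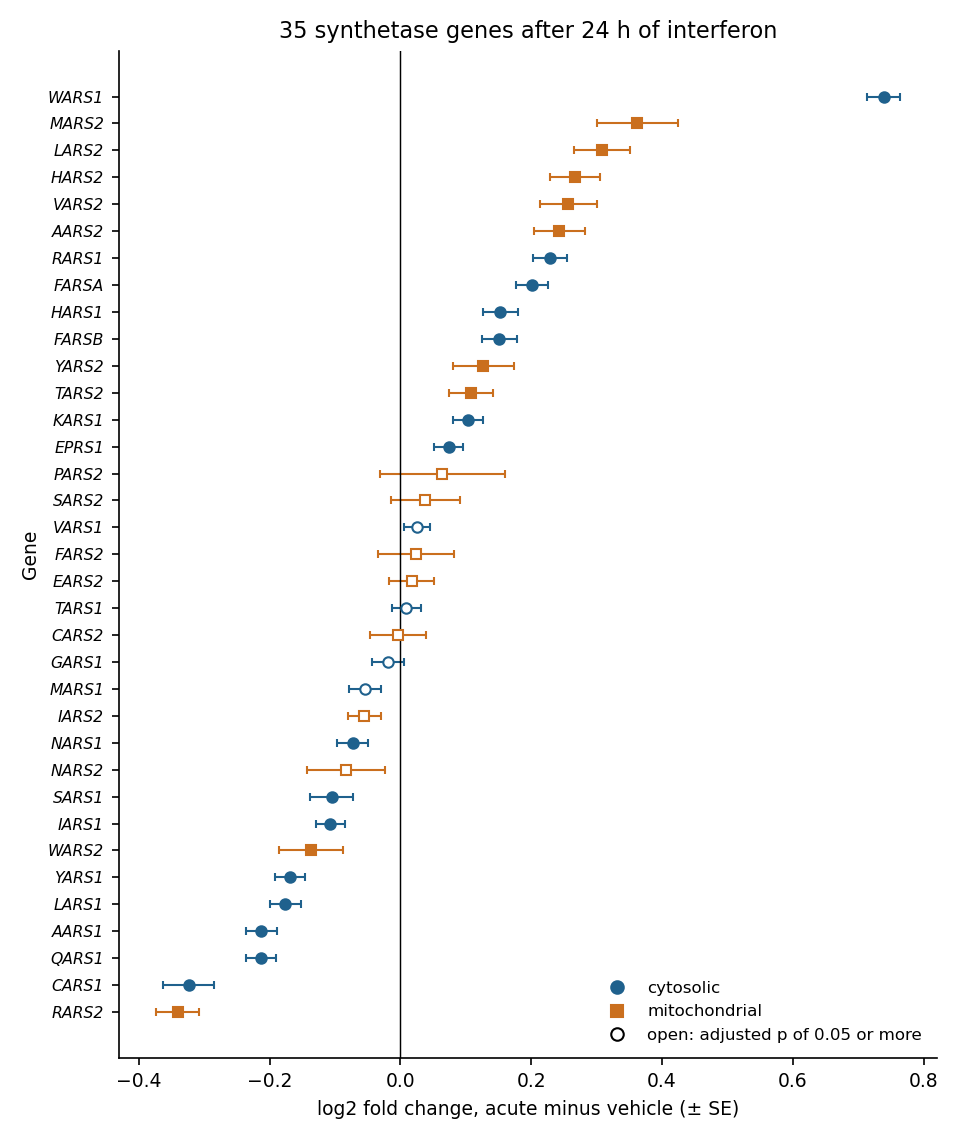
Log2 fold change from vehicle to acute cells (horizontal axis, ± SE, 3 libraries a group) of the 35 synthetase genes (vertical axis), ordered by value. Circles are cytosolic and squares mitochondrial enzymes, and open symbols had an adjusted p of 0.05 or more. WARS1 at 0.74 stands apart from the other genes, which run from -0.34 (RARS2) to 0.36 (MARS2).

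Among mitochondrial enzymes MARS2 (methionine), LARS2 (leucine) and HARS2 (histidine) rose most. MARS2 gave 9.65, 9.05 and 9.90 CPM in vehicle and 12.6, 12.4 and 11.7 CPM in acute libraries (log2 fold change 0.36 ± 0.062, adjusted p = 2.05e-05). LARS2 gave 23.2, 22.9 and 23.7 CPM and then 27.4, 30.7 and 28.5 CPM (0.31 ± 0.043, adjusted p = 9.01e-07). HARS2 gave 27.9, 29.7 and 29.6 CPM and then 35.5, 34.4 and 34.8 CPM (0.27 ± 0.038, adjusted p = 1.35e-06). In all 3 genes every acute library lay above every vehicle library. VARS2 (valine, 0.26 ± 0.044), AARS2 (alanine, 0.24 ± 0.039), YARS2 (tyrosine, 0.13 ± 0.046) and TARS2 (threonine, 0.11 ± 0.033) rose as well.

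RARS2, the mitochondrial arginine enzyme, fell furthest of the set. It gave 52.4, 53.0 and 51.3 CPM in vehicle and 40.6, 41.2 and 42 CPM in acute libraries (log2 fold change -0.34 ± 0.033, interval -0.41 to -0.27, adjusted p = 1.11e-09). WARS2, the mitochondrial counterpart of WARS1, gave 16.5, 16.8 and 16.5 CPM and then 15.7, 15.1 and 14.4 CPM (-0.14 ± 0.049, adjusted p = 0.0252). Both genes' acute libraries lay below all vehicle libraries. The other 7, CARS2, EARS2, FARS2, IARS2, NARS2, PARS2 and SARS2, were not called, with log2 fold changes of -0.08 to 0.06. PARS2 had the lowest CPM of the set, not divided by length, and its 95% interval was wide (-0.13 to 0.26).

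Of the 24 calls, 12 held under all 20 alternatives tried: AARS1, FARSA, FARSB, IARS1, QARS1, RARS1, WARS1, YARS1, AARS2, HARS2, MARS2 and RARS2. CARS1, HARS1, KARS1, LARS2 and VARS2 lost the call on log2 TPM and with an offset for the length implied by the TPM, LARS1 and SARS1 on log2 TPM, EPRS1 with upper quartile scaling, and TARS2, WARS2 and YARS2 in 4 to 7 settings each. On log2 TPM LARS2 (0.31) and VARS2 (0.21) kept most of their change, while CARS1 (-0.20) and HARS1 (0.11) came closer to 0. Across the alternatives YARS2 ran from 0.09 to 0.29 and WARS2 from -0.25 to -0.11, both farther from 0 with the length offset than on counts alone, although not called there. NARS1 lost its call without vehicle replicate 1 and without acute replicate 1 or 3, and SARS1 without vehicle replicate 1 or 2 or acute replicate 2 or 3. WARS2 lost it without vehicle replicate 1 or 2 or acute replicate 3, YARS2 without vehicle replicate 1 or 2 or acute replicate 1, and TARS2 without acute replicate 1.

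Cytosolic and mitochondrial enzymes for the same amino acid could be set side by side for 13 amino acids. In 5 of the 13 both genes were called and in opposite directions, beside 22.3% of all genes called higher and 21.5% lower. These are shares of single genes, and of genes with a mean CPM at least that of the lowest synthetase 60.9% were called. How often other pairs of genes are called in opposite directions was not computed, so 5 of 13 is not shown to be unusual. AARS1 (-0.21), LARS1 (-0.18) and YARS1 (-0.17) fell while AARS2 (0.24), LARS2 (0.31) and YARS2 (0.13) rose. RARS1 (0.23) and WARS1 (0.74) rose while RARS2 (-0.34) and WARS2 (-0.14) fell. Of these 5 pairs only those for alanine and arginine kept both calls under all 20 alternatives. WARS2 and YARS2 lost theirs with DESeq2, among other settings. Only the histidine genes were both called the same way, HARS1 at 0.15 and HARS2 at 0.27. In the other 7 pairs 1 gene was called: the cytosolic one for cysteine, isoleucine, asparagine and serine and the mitochondrial one for methionine, threonine and valine. No test of a difference within a pair was run.

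The histidine genes lie head to head on chromosome 5, with 84 bases between their starts in the RefSeq table. The stretch is shown because it is shared by both genes, and HARS1 reads out of it on the minus strand and HARS2 on the plus strand.
HARS1 to HARS2, chr5:140691371-140691454, plus strand: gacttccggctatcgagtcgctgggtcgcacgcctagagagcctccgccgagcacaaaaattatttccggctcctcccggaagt
Their annotated spans overlap, and the strand setting used in counting was not stated. That limit holds for the 20 members whose span overlaps a gene on the other strand. KARS1, for example, overlaps TERF2IP, which rose by 0.31 ± 0.027 on the log2 scale, and MARS1 overlaps DDIT3. YARS2, at 21.6 CPM in vehicle cells, overlaps DNM1L, which rose from 136 to 146 CPM (0.11 ± 0.022). The part of such neighbours in the synthetase counts was not tested.

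**Figure D3:**
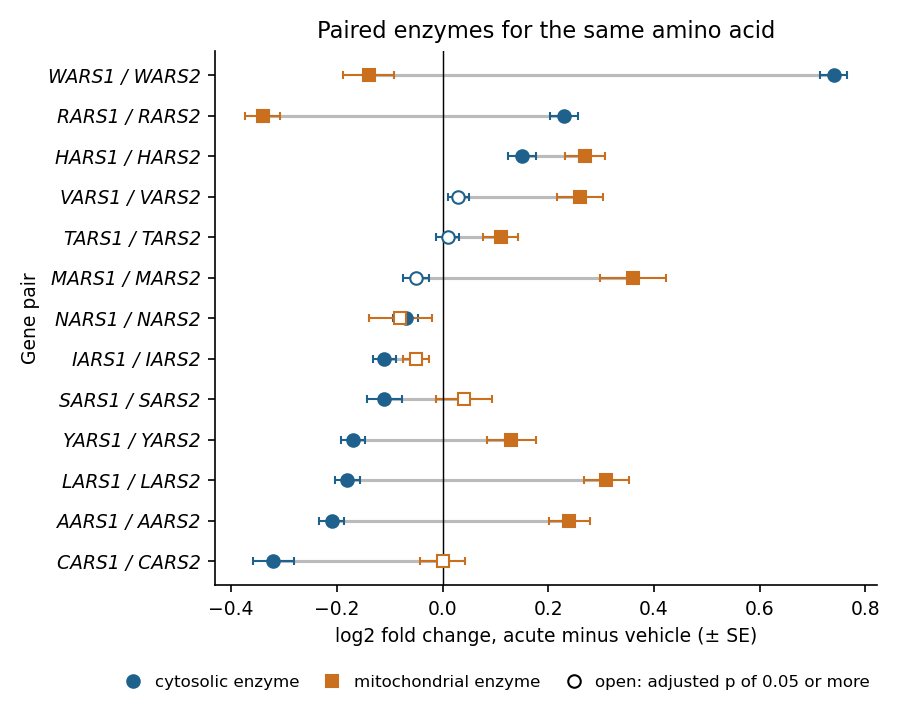
Log2 fold change from vehicle to acute cells (horizontal axis, ± SE) for the cytosolic (circles) and mitochondrial (squares) gene of 13 amino acids (vertical axis), joined by a grey line. Open symbols had an adjusted p of 0.05 or more. In 5 pairs filled symbols lie on opposite sides of 0, with the widest gap for WARS1 (0.74) and WARS2 (-0.14). The calls of WARS2 and YARS2 were lost with DESeq2.

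Enzymes of the multisynthetase complex were called in both directions. Of its 7 enzymes in the set (EPRS1, IARS1, KARS1, LARS1, MARS1, QARS1 and RARS1) 3 rose, 3 fell and MARS1 was not called (median -0.05), beside 22.3% of all genes called higher and 21.5% lower. Its scaffolds AIMP1 (0.13 ± 0.029, adjusted p = 0.000714) and AIMP2 (0.12 ± 0.036, adjusted p = 0.00634) rose, and EEF1E1 was not called (0.13 ± 0.054, adjusted p = 0.0631). Elongation factors, their exchange factors and the related mitochondrial factor GFM2 were listed with VARS1, a synthetase that binds the EEF1 exchange complex. Of these 10 genes 2 rose, the exchange factor subunit EEF1D (0.08 ± 0.024) and the mitochondrial translocation factor GFM1 (0.13 ± 0.028), and 3 fell. Those that fell were EEF1G (-0.19 ± 0.021), EEF1B2 (-0.06 ± 0.025) and GFM2 (-0.12 ± 0.04). EEF1A1, which carries charged tRNA to cytosolic ribosomes, was not called (-0.04 ± 0.021). Of the 4 genes that finish mitochondrial tRNA charging by amidation or formylation (GATB, GATC, QRSL1 and MTFMT), 0 were called by edgeR and 0 had an unadjusted p under 0.05. Of all genes 43.8% were called and 49.3% had an unadjusted p under 0.05, and 4 genes are few for such a comparison.

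Genes of the ATF4 response were mostly lower in the acute cells. Of 27 listed genes 19 fell, 4 rose and 4 were not called (median -0.17), beside 21.5% of all genes called lower, 22.3% called higher and a median of 0. ATF4 itself fell by 0.21 ± 0.023 on the log2 scale. PSAT1 (-0.38 ± 0.039) and PHGDH (-0.34 ± 0.024) of serine synthesis, ASNS, which makes asparagine (-0.18 ± 0.039), and SLC7A11, which imports cystine (-0.73 ± 0.048), fell. DDIT4, an inhibitor of mTORC1, fell as well (-0.63 ± 0.054). The 4 that rose were DDIT3 (0.22 ± 0.073), ATF5 (0.22 ± 0.037), SLC3A2, the shared chain of amino acid transporters (0.22 ± 0.028), and ALDH18A1 of proline synthesis (0.24 ± 0.026). Of the 11 synthetases listed as ATF4-linked, 6 fell, 3 were not called and 2 rose, WARS1 and EPRS1 (median -0.07). Of the 8 other cytosolic synthetases 5 rose, 2 fell and 1 was not called (median 0.13). Of all genes 43.8% were called, and of those with a mean CPM at least that of the lowest synthetase 60.9%. These lists were chosen by name, with earlier results of these data known, and were not tested against each other. Fibroblast and stromal markers moved with these genes: 6 of 9 were lower and 1 higher in acute cells, with a summed level of 4720 to 4930 TPM in vehicle and 4710 to 4850 TPM in acute libraries. That sum holds opposite moves. The 1 that rose, VIM, went from 2240 to 2730 TPM (0.29 ± 0.021), and COL1A1 fell from 1450 to 1110 TPM (-0.36 ± 0.026). The part of these markers in the result was not tested.

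**Figure D4:**
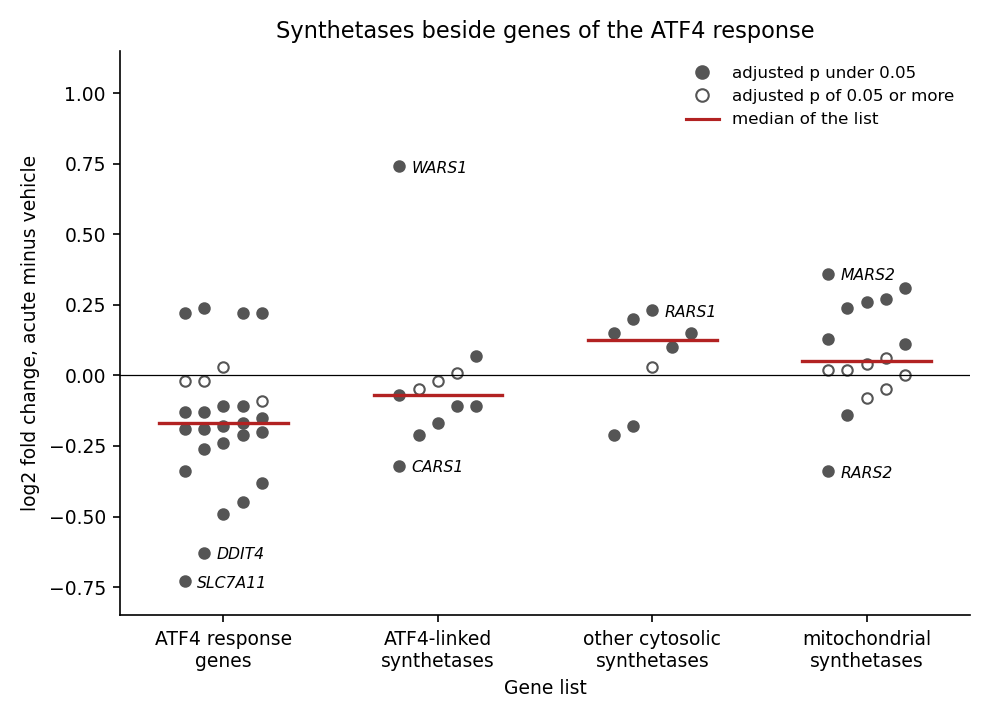
Log2 fold change from vehicle to acute cells (vertical axis) for genes of 4 lists (horizontal axis), with filled points for an adjusted p under 0.05 and a line at each list's median. Medians are -0.17 for 27 ATF4 response genes, -0.07 for 11 ATF4-linked synthetases, 0.13 for 8 other cytosolic and 0.05 for 16 mitochondrial synthetases, and WARS1, an ATF4-linked synthetase, is the highest point at 0.74.

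Genes that handle tryptophan, the substrate of WARS1, were listed as well. Of 13 such genes 11 passed the filter, of which 3 rose and 4 fell, beside 22.3% of all genes called higher and 21.5% lower. IDO1 (2.85 ± 0.44, adjusted p = 3.75e-06) and TDO2 (1.22 ± 0.29, adjusted p = 0.000838), the enzymes that open the tryptophan ring, rose from near the floor of detection. Their highest counts in any library were 59 and 41. SLC3A2 rose, and its partner in tryptophan uptake SLC7A5 fell (-0.11 ± 0.025). QPRT (-0.38 ± 0.045), KYAT1 (-0.44 ± 0.07) and AFMID (-0.21 ± 0.053), which act further down the kynurenine route, fell.

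Over the 12 libraries, the genes whose log2 CPM ran most nearly parallel to WARS1 among 9724 with a symbol and a mean of at least 10 CPM were DKK1, MYD88, THEMIS2, CASP4, STAT2, PDIA4, FST, CALR, P4HA2 and CNP (Pearson r 0.9969 to 0.9978). Their log2 fold changes in the first pulse ran from 0.39 (CALR) to 2.16 (THEMIS2), against 0.74 for WARS1. Among the synthetases HARS2 (0.97) and FARSA (0.96) had the highest r with WARS1, and RARS2 (-0.96) and QARS1 (-0.95) the lowest. These coefficients rest on libraries that form 2 clusters, those taken at the end of a pulse (acute and repeat) and the others (vehicle and recovery), so they describe a shared group pattern and carry no test.

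From the end of the pulse to the 5-day hold, WARS1 fell by 0.78 ± 0.025 on the log2 scale (adjusted p = 4.03e-20). Of the 35 genes 21 were called, 9 higher and 12 lower, against 41.1% of all genes (20.4% higher, 20.7% lower). With the offset for implied length 12 were called, 7 higher and 5 lower, and on log2 TPM also 12, but 4 higher and 8 lower. The share called among genes at synthetase levels was not computed here, and was 60.9% for acute minus vehicle. This comparison and the first share the acute libraries, so their opposite signs are not independent. RARS2 rose (0.27 ± 0.033), as did CARS1 (0.22 ± 0.04), WARS2 (0.22 ± 0.049) and QARS1 (0.17 ± 0.023). HARS2 (-0.29 ± 0.038), MARS2 (-0.26 ± 0.062), AARS2 (-0.26 ± 0.039), VARS2 (-0.25 ± 0.044) and RARS1 (-0.20 ± 0.026) fell. FARSB was not called (-0.05 ± 0.027, adjusted p = 0.14).

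After the hold, the log2 differences from vehicle ran from -0.10 to 0.11. WARS1 differed from vehicle by -0.04 ± 0.026 (95% interval -0.09 to 0.01, adjusted p = 0.458). The sign turned on log2 TPM and with the length offset (0.06 in each), where it was not called either. Of the 35 genes 2 were called, 1 higher and 1 lower, against 5.94% of all genes (3.03% higher, 2.91% lower), so this is near the background. FARSB gave 79.2, 81.5 and 81.2 CPM in recovery libraries, above the 73.4 to 76.7 CPM of vehicle (0.10 ± 0.027, adjusted p = 0.0206). AARS1 gave 372, 368 and 355 CPM, below the 373 to 392 CPM of vehicle (-0.08 ± 0.024, adjusted p = 0.0454). On log2 TPM and with the length offset 0 of 35 were called, with upper quartile scaling 1, and without 1 library at a time 0 to 4. Of the 27 ATF4 response genes 11 were lower than in vehicle and 0 higher (median -0.09). Of 9 fibroblast and stromal markers 7 were lower and 1, VIM, higher in the same comparison (median -0.21). Their summed level was 4770 to 4820 TPM in recovery libraries, a sum in which VIM (0.19 ± 0.021) and COL1A1 (-0.21 ± 0.026) moved in opposite directions. The part of these markers in the result was not tested. Every vehicle library is labelled 24 h, so recovery and time in culture cannot be told apart.

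The later pulse was compared with the hold (repeat minus recovery), a comparison that shares no library with the first. Hold (5 days in recovery, 4 days in repeat cells) and labelled harvest (day 6, day 7) differed too and cannot be told apart from the pulse. WARS1 rose by 0.72 ± 0.025 on the log2 scale (1.65-fold, interval 0.67 to 0.77, adjusted p = 2.07e-19). Of the 35 genes 24 were called, 15 higher and 9 lower, against 41.6% of all genes (21.1% higher, 20.5% lower) and 58.8% of those with a mean CPM at least that of the lowest synthetase. Cytosolic enzymes split into 8 higher, 6 lower and 5 not called (median -0.01), and mitochondrial enzymes into 7, 3 and 6 (median 0.12). On log2 TPM 12 were called and with the length offset 13. RARS1 gave 126, 126 and 129 CPM in recovery and 148, 157 and 155 CPM in repeat libraries (0.27 ± 0.026, adjusted p = 7.48e-10). HARS2 gave 29.1, 29.3 and 27.5 CPM and then 34.8, 34.5 and 35.2 CPM (0.28 ± 0.038, adjusted p = 4.81e-07). Neither gene's groups overlapped. LARS2 rose by 0.28 ± 0.042. CARS1 fell from 62.4, 66 and 61.1 CPM to 48.7, 53.6 and 54.5 CPM (-0.27 ± 0.039, adjusted p = 4.35e-06). RARS2 fell from 49.7, 49.9 and 49.3 CPM to 40.4, 43.3 and 41.8 CPM (-0.25 ± 0.032, adjusted p = 3.83e-07). The repeat libraries of both lay below all recovery libraries. QARS1 (-0.20 ± 0.023) and WARS2 (-0.18 ± 0.048) also fell.

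Most synthetases that changed in the first pulse changed the same way in the later one. In both, 22 of 35 genes were called in the same direction, 14 higher and 8 lower, and 0 in opposite directions. NARS1 and SARS1 were called in the first pulse only, GARS1 and IARS2 in the later one only, and 9 in neither. A call in only 1 of the comparisons does not show a difference between them. Of all genes tested, 33.7% were called in both in the same direction. Across the 35 genes the log2 fold changes had a Pearson r of 0.96 (0.95 over the 34 genes without WARS1), beside 0.66 over all 18119 genes. The 33.7% and the 0.66 include genes below the lowest synthetase mean of 6.11 CPM, so they are not matched by level. Genes are not independent replicates, and no p is given. For the amino acids with 2 genes, 5 pairs were again called in opposite directions, 2 in the same direction (histidine and isoleucine), 4 had 1 gene called and 2 had none. Of single genes with a mean CPM at least that of the lowest synthetase 58.8% were called in the later pulse. No share for other pairs of genes was computed.

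**Figure D5:**
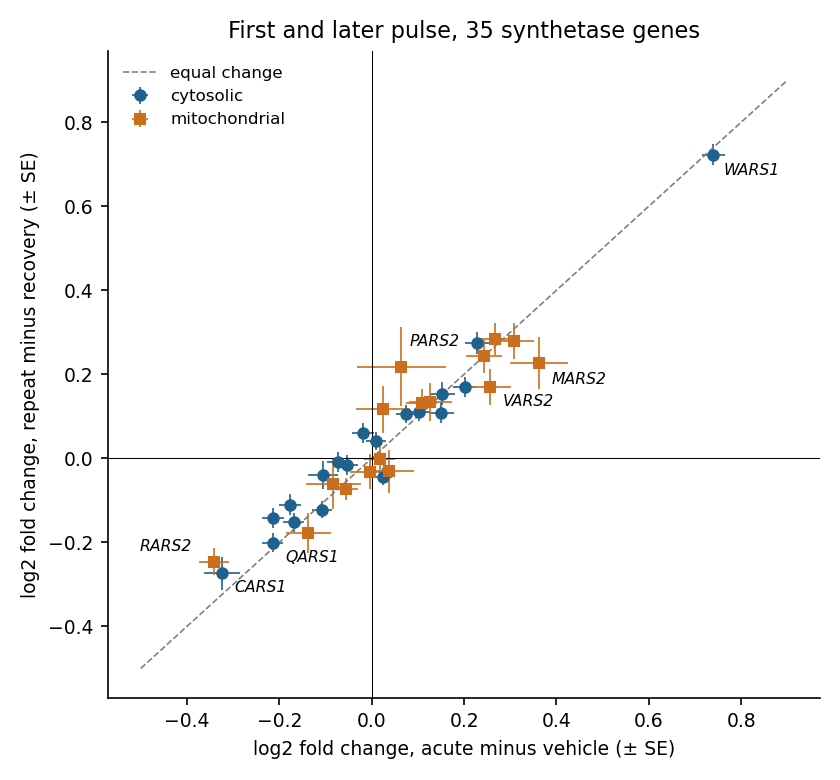
Log2 fold change of 35 synthetase genes in the first pulse (acute minus vehicle, horizontal axis) and the later pulse (repeat minus recovery, vertical axis), with SE bars, 3 libraries a group. Circles are cytosolic and squares mitochondrial enzymes, and the dashed line marks equal change. Points lie along the line (r = 0.96), with WARS1 at 0.74 and 0.72.

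The difference between the responses was tested as an interaction, which includes the differing hold and harvest day of recovery and repeat cells. For WARS1 it was -0.02 ± 0.035 (95% interval -0.09 to 0.06, adjusted p = 0.926). By edgeR 0 of 35 synthetases were called, against 0.651% of all genes, and 4 had an unadjusted p under 0.05 (AARS1, GARS1, VARS1 and RARS2), beside 10.5% of all genes. DESeq2 and limma on log2 TPM called 0 as well. The ends of the pulses were also compared directly (repeat minus acute). Again 0 of 35 were called by edgeR, against 4.2% of all genes, and 4 had an unadjusted p under 0.05 (FARSB, RARS1, VARS1 and WARS1), beside 17% of all genes. DESeq2 called 1, VARS1, limma on log2 TPM called 0, and RARS1 was called without repeat replicate 1. WARS1 was at 169 to 179 CPM in repeat and 181 to 183 CPM in acute libraries, a log2 difference of -0.06 ± 0.024 (interval -0.11 to -0.01, adjusted p = 0.214). The libraries did not overlap, but the difference was -0.03 without repeat replicate 1 (adjusted p = 0.524), 0.00 on log2 TPM and 0.01 with the length offset. Pulse number and time in culture cannot be told apart in this comparison.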

How the data were processed

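RNA was sequenced from 12 libraries in 4 groups (poly(A)-selected, stranded, per the labels' protocols). The authors deposited unscaled estimated counts and TPM. The submitters' processing notes list STAR 2.7.11a, featureCounts 2.0.3, Picard 2.27.5, Trim Galore 0.6.10, cutadapt 4.3 and edgeR, with build GRCh38.p13. The labels' design text names GENCODE 41. Whether reads were counted by strand is not given in the sources used here. Of nonzero counts 25.49% were not whole, so counts were rounded. Symbols and coordinates came from GENCODE 44 (60463 identifiers matched), promoter sequences from RefSeq (GRCh38.p14). Columns without a sample numbered 0.

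Counts were fitted in R 4.3.3 with edgeR 4.0.16 (quasi-likelihood F test, robust, TMM, filterByExpr, 1 mean per group, all 12 libraries, no covariate), with Benjamini-Hochberg adjustment over 18119 genes. The common biological coefficient of variation was 2.67%, and the code was tested on simulated data. Replicate libraries differed by 1.78 to 2.99 times Poisson noise, so none was merged. Alternatives were DESeq2 1.42.0, upper quartile scaling, filters, limma 3.58.1 on log2(TPM + 1), a length offset, only the groups compared, a replicate block and each library left out. The share of WARS1 per kilobase of annotated exon was added after seeing the data. Values by library are given for WARS1, AARS1, EPRS1 and, among called genes whose groups did not overlap, the 5 largest rises and falls among cytosolic and the 3 largest among mitochondrial enzymes in the first comparison. In the other comparisons the 3 largest of each sign were eligible. Other members are named with their fold changes. The members and gene lists were chosen with earlier results of these data known.

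The labels name different media. Repeat cells are labelled day 7, although the stated times add up to less. All libraries carry 1 batch label.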

Additional observations from a re-analysis of the deposited data

How the results depend on the processing

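WARS1 kept its side of the threshold in every comparison under the alternatives run, and its direction in the 3 comparisons in which it was called. Its first-pulse log2 fold change ran from 0.71 (upper quartile scaling) to 0.91 (log2 TPM), with 0.89 under the length offset. Counts of synthetases called moved with the length correction: on log2 TPM they were 14 (acute minus vehicle), 12 (recovery minus acute), 0 (recovery minus vehicle) and 12 (repeat minus recovery), and with the offset 16, 12, 0 and 13. Among the 24 first-pulse calls, the sign was kept in 24 on log2 TPM. Over all genes, calls fell from 7938 to 4344 on log2 TPM and 4420 with the offset in the first pulse, from 7448 to 3836 and 3914 for recovery minus acute, from 1076 to 118 and 178 for recovery minus vehicle, from 7546 to 3824 and 3971 for the later pulse, from 761 to 6 and 10 for repeat minus acute, and from 118 to 3 and 11 for the interaction. DESeq2 called 235 genes for the interaction and the unfiltered fit 333. The cause was not tested. Upper quartile scaling called 1 synthetase for recovery minus vehicle and shifted the median of all genes in the first pulse by -0.027. DESeq2 called 1 for repeat minus acute. Leaving out 1 library at a time gave 0 to 4 calls for recovery minus vehicle and 0 to 1 for repeat minus acute. The share of WARS1 among cytosolic synthetases, main value from TPM, was 2.91%, 4.89%, 2.89% and 4.72% by counts and 2.83%, 4.63%, 2.79% and 4.45% per kilobase of annotated exon (vehicle, acute, recovery, repeat). With the replicate number as a block 24, 22, 3, 24, 0 and 0 synthetases were called in the 6 comparisons, and WARS1 stayed at 0.74 in the first pulse. No clear pairing by number was seen: between groups, same-numbered libraries had correlations of -0.164 to 0.182, with 1 of 18 over 0.1. Those of other-numbered libraries were -0.146 to 0.161. Pairing was not tested. With 3 libraries a group, changes in enzymes with few counts such as PARS2 (6.11 CPM on average) were the least precise.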
